A study of Mus musculus with 12 samples.

Results

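Hox genes encode homeodomain transcription factors that give cells along the head-to-tail axis their positional identity. They are the genes of the mouse named Hoxa, Hoxb, Hoxc or Hoxd with a number, and 39 of them are annotated, in 4 clusters on chromosomes 6 (A), 11 (B), 15 (C) and 2 (D). Of these, 34 were measured by probe sets that name a single gene, out of 17097 such genes on the array. The others were not analysed here. The 34 genes had 42 probe sets. In each tissue a gene was read from its probe set with the highest mean over the 6 arrays of that tissue.

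Within a cluster the genes lie in the order of their numbers, and genes of the same number in different clusters are paralogs. Low-numbered genes act towards the head and high-numbered genes towards the tail and the limb ends. In the lung, Hox transcripts are known mainly from the mesenchyme, the connective tissue around the airways, where members of the middle paralog groups take part in branching. The adult liver is not a known site of strong Hox expression.

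The study asked what the bile acid load of mothers lacking Abcb11, the canalicular bile salt export pump of hepatocytes, does to their offspring. Lungs came from C57BL/6 fetuses at E17.5 and E18.5 and from newborns on the day of birth (PN0), with 1 array for each stage and each mother. All pups were Abcb11+/-, born either to a WT mother mated with an Abcb11-/- father or to an Abcb11-/- mother mated with a WT father. Both kinds of pup therefore carried 1 mutant allele and the comparison is between mothers, not between pup genotypes. The other 6 arrays held livers of adult C57BL/6 females, 3 WT and 3 Abcb11-/-, 1.5 months old, each carrying its genotype in all cells. A legend of the study gives several embryos or neonates a group at E18.5 and PN0, but how many pups each lung array stands for is not stated.

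The surfactant gene Sftpc, a type II cell marker, lay at log2 13.23 to 13.39 on the lung arrays and at 2.77 or lower on the liver arrays. The livers separated by genotype at Abcb11, with a mean of 11.05 ± 0.17 for WT and 3.1 ± 0.18 for Abcb11-/- mice (SD, n = 3 each). One lung array stood apart, that for the Abcb11-/- mother at E17.5 (the set-apart E17.5 array). On it, 9 of 10 hepatocyte markers and 11 of 15 skeletal muscle markers were at least 1.5-fold above the WT-mother array of that stage. The summed level of the hepatocyte list was 14.27 there and 7.12 to 10.15 on the other lung arrays, and that of the skeletal muscle list was 12.19 against 8.27 to 9.14. In the same pair, 7 of 9 heart muscle markers and 4 of 6 smooth muscle markers were at least 1.5-fold lower. The PN0 array of the WT mother also differed from the rest. Lum and Dcn, proteoglycan genes of fibroblasts, read 5.49 and 7.37 there against 7.39 to 7.99 and 8.63 to 9.21 on the other 5 arrays. Of the 11 lung fibroblast markers, only these 2 were at least 1.5-fold apart between the mothers at PN0 (median difference of the list 0.13). On the array of the WT mother, 5 of 9 heart muscle markers were at least 1.5-fold below the PN0 array of the Abcb11-/- mother (median difference 0.84). Of the single lung arrays left out, the PN0 array of the WT mother lowered the number of genes called from E17.5 to PN0 the most. Leaving out any other lung array, apart from the set-apart E17.5 array, lowered that number too. The main results on the stages and the mothers are therefore also given without these arrays, and the part of these markers in the results was not tested.

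Promoter sequences of 4 members are shown first, from genes that were bright and dim in lung. Hoxa5 and Hoxb4 are the members above log2 6 in lung that had a window in the table used, and Hoxa7 and Hoxb8 are dim genes of the same clusters. Each run holds the 250 bases before the RefSeq transcription start (GRCm38.p6), read 5′ to 3′ with the gene, and the capitals mark CpG dinucleotides, the sites at which mammalian DNA is methylated.
Hoxa5 (chr6:52204588-52204837, minus strand): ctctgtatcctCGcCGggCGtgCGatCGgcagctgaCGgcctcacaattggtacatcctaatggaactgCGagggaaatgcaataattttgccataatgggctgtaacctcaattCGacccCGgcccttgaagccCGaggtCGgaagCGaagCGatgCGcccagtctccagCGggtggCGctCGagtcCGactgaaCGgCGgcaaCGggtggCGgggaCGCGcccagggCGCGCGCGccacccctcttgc
Hoxb4 (chr11:96318017-96318266, plus strand): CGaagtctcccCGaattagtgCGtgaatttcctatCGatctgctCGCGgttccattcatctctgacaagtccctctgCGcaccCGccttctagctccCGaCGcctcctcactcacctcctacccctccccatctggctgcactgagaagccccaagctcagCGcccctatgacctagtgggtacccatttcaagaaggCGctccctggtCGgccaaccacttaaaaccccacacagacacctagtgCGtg
Hoxa7 (chr6:52218574-52218823, minus strand): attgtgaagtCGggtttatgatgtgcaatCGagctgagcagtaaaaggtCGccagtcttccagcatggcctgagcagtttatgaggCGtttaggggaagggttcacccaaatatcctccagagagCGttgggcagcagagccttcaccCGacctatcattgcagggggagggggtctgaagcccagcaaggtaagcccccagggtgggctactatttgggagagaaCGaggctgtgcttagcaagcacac
Hoxb8 (chr11:96281655-96281904, plus strand): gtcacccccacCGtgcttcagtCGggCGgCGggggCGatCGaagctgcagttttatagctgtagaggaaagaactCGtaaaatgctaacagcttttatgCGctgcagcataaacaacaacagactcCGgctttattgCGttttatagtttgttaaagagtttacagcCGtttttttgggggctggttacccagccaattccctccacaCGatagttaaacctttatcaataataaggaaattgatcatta

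The Hoxa5 window held 28 CpG dinucleotides, a number reached by 7.6% of all 32851 windows. The Hoxb4 window held 14 (29.4% of all windows hold as many), that of Hoxb8 12 (33.5%) and that of Hoxa7 7 (46.3%). Dim genes could hold more CpG than Hoxb4, among them Hoxa13 with 35, Hoxd13 with 31 and Hoxd1 with 24. Over the 24 windows of 22 Hox genes the median was 12.5 CpG, with a range from 2 to 35, and over all windows it was 6. Short motifs were searched on both strands, counting overlapping matches. TATAAA, the letters of a TATA box, was found 2 times in the Hoxb8 window and in 4 Hox windows (16.7%, against 12.4% of all windows). Both matches in the Hoxb8 window lay on the strand opposite to the gene, where they read TTTATA in the run shown. CCAAT was found once each in the windows of Hoxa5 and Hoxb8, in 14 Hox windows (58.3%) and in 33.8% of all windows. TGATNNAT, the letters bound by Pbx and Hox proteins together, was found in the Hoxb8 window, in 4 Hox windows (16.7%) and in 7.7% of all windows. TAATTA, a core bound by many homeodomains, was found in 2 Hox windows (8.3%), none of them shown here, and in 4.8% of all windows. These are matches of letters and not measured binding.

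In the lung, 5 of the 34 Hox genes had a mean above log2 6, and all 5 belonged to paralog groups 2 to 5 of clusters A and B. They were Hoxa5 in cluster A and the contiguous genes Hoxb2, Hoxb3, Hoxb4 and Hoxb5 in cluster B. That is 14.7% of the Hox genes, whereas 42.2% of all genes had such a mean. No gene of cluster C or D came near the threshold, and no gene of paralog group 1 or of groups 6 to 13 passed it. The threshold is one of brightness. Probe sets differ in how well they bind, so the values do not order the genes by transcript number.

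**Figure D1:**
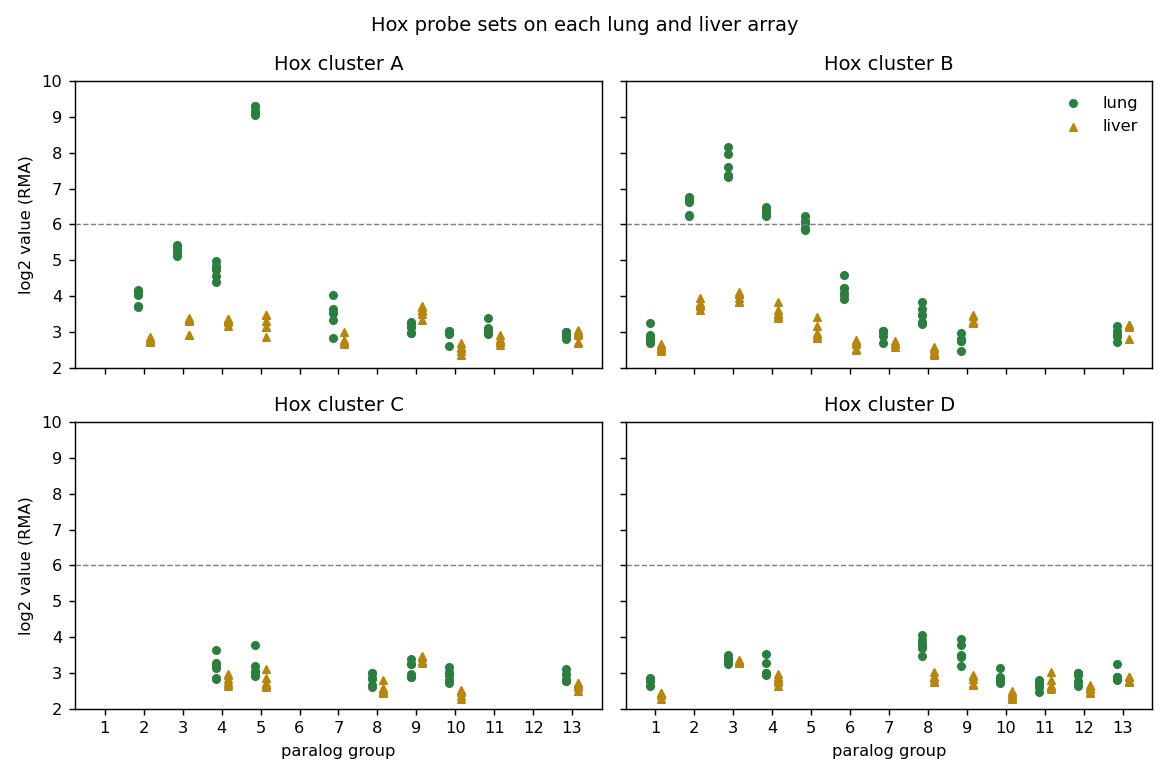
Log2 values of the 34 Hox genes by cluster and paralog group, with each of the 6 lung arrays (circles) and the 6 liver arrays (triangles) as a point. Lung points lie above the dashed line at log2 6 at Hoxa5 and at Hoxb2 to Hoxb5, and no liver point lies above 4.1.

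Hoxa5, which is needed for the trachea and for the mesenchyme of the airways to form, had the brightest probe set. With a WT mother it read 9.30 at E17.5, 9.17 at E18.5 and 9.04 at PN0, and for the Abcb11-/- mother 9.29, 9.13 and 9.10. The 6 arrays spanned only 0.26 log2 units, and both mothers gave the highest value at E17.5 and the lowest at PN0.

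Hoxb3, a hindbrain and pharyngeal patterning gene, read 7.95, 7.60 and 7.33 over the same stages for the WT mother and 8.15, 7.39 and 7.35 for the Abcb11-/- mother. Both E17.5 arrays were above all 4 later arrays. Hoxb2, which patterns the hindbrain segment that gives rise to the facial nerve, read 6.64, 6.62 and 6.24 for the WT mother and 6.75, 6.69 and 6.27 for the Abcb11-/- mother. Here both PN0 arrays were below the 4 earlier ones.

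Hoxb4, best known from blood stem cells, read 6.42, 6.49 and 6.27 for the WT mother and 6.24, 6.40 and 6.38 for the Abcb11-/- mother, with no order of stages common to both. Hoxb5, which acts in airway branching and in the nerve cells of the gut, read 6.25, 5.85 and 6.09 for the WT mother and 6.08, 6.03 and 5.90 for the Abcb11-/- mother. Its mean of 6.03 was just inside the threshold, and 4 of its 6 arrays were above 6. Without the E17.5 array of the WT mother, or after a quantile normalization over all 12 arrays, Hoxb5 was not above log2 6 (4 genes were), and with averaged probe sets Hoxb4 was not.

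The members just outside the threshold were neighbours of these genes. Hoxa3, which is required for the thymus and parathyroid, had a mean of 5.27 and a range of 5.11 to 5.41. This came from 1 of its 4 probe sets, a type that can bind related transcripts, and the other 3 had means of 3.25 to 3.71. Hoxa4, a gene of the neck vertebrae, had a mean of 4.72 (4.39 to 4.99), and Hoxb6 one of 4.18 (3.93 to 4.59). Hoxa2, the patterning gene of the second pharyngeal arch, followed at 3.96.

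The remaining genes were dim on all 6 lung arrays. The 6 measured genes of cluster C had means of 2.83 to 3.16 and the 9 of cluster D had means of 2.67 to 3.78. Within paralog groups 2 to 5, the 4 measured genes of clusters C and D had means of 3.12 to 3.38, against 3.96 to 9.17 for the 8 genes of clusters A and B. In groups 10 to 13, whose genes pattern the lower trunk, limb ends and urogenital tract, the 10 genes had means of 2.67 to 3.08. Low brightness is no measure of absence. Nkx2-1, the transcription factor that marks the lung epithelium, read 3.23 to 3.82 on these arrays.

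Among the genes with a second probe set, the one for Hoxb3 read 6.20, 5.84 and 5.88 for the WT mother and 6.25, 5.99 and 5.50 for the Abcb11-/- mother, again with both E17.5 arrays above the 4 later ones. At PN0 the mothers differed by -0.38 on this probe set and by 0.02 on the brighter one. The second probe set of Hoxb4 was dim, at 3.82 to 4.45.

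The change over late gestation was tested on all 6 lung arrays with stage and mother as terms in limma, with Benjamini-Hochberg adjustment over 17097 genes and a threshold of 0.05. From E17.5 to PN0, 524 genes rose and 484 fell, or 5.9% of all genes. None of the 34 Hox genes was called. Leaving out the set-apart E17.5 array, 552 genes rose and 732 fell (7.51%), and without the PN0 array of the WT mother 23 and 3 (0.152%), with no Hox gene called in either. At an unadjusted p under 0.05 there were 6 Hox genes, 2 higher and 4 lower, of 34, while 24.6% of all genes had such a p. The median log2 change of the 34 genes was -0.02 and that of all genes -0.0040, with 19 Hox genes below 0 and 15 above.

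The Hox gene nearest to the threshold was Hoxb3, with a log2 change of -0.71 ± 0.15 (SE; 95% interval -1.09 to -0.33) and a limma adjusted p of 0.0563. Without the set-apart E17.5 array the change was -0.57 with an adjusted p of 0.148, and without the PN0 array of the WT mother it was -0.70 with an adjusted p of 0.264. When the fit was confined to the 7222 genes with a mean of at least log2 6, the limma adjusted p of Hoxb3 was 0.0265. Hoxb2 was also called there (-0.44, adjusted p = 0.0467), among 1446 of the 7222 genes. A trended and robust prior in limma called Hoxb3 as well (adjusted p = 0.0218), among 1783 of 17097 genes. In whole lung, fewer cells of a type and less RNA per cell cannot be told apart.

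Hoxb3 was also the one Hox gene with a bright array that changed at least 1.5-fold from E17.5 to PN0 within a mother, by -0.62 for the WT mother and -0.80 for the Abcb11-/- mother on the log2 scale. Among all genes with an array of at least log2 6, 31% changed that far for the WT mother and 17.5% for the Abcb11-/- mother. With 1 array a side these counts have no test.

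For Hoxb2 the log2 change from E17.5 to PN0 was -0.44 ± 0.13 (SE; adjusted p = 0.105 in the limma fit over all genes), and most of it lay between E18.5 and PN0 (-0.40). For Hoxa5 the change was -0.23, with a 95% interval from -0.55 to 0.09. For Hoxb5 it was -0.16, with an interval from -0.55 to 0.22, and for Hoxb4 the interval ran from -0.35 to 0.35. The interval of Hoxb2 was -0.76 to -0.12, and none of these 4 reaches a 1-unit (2-fold) change. Without the set-apart E17.5 array the change of Hoxb2 was -0.41 with an interval from -0.87 to 0.05, and those of Hoxa5 (-0.24), Hoxb4 (-0.09) and Hoxb5 (-0.25) had intervals that included 0. Without the PN0 array of the WT mother the interval of Hoxb2 ran from -0.96 to 0.01.

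**Figure D2:**
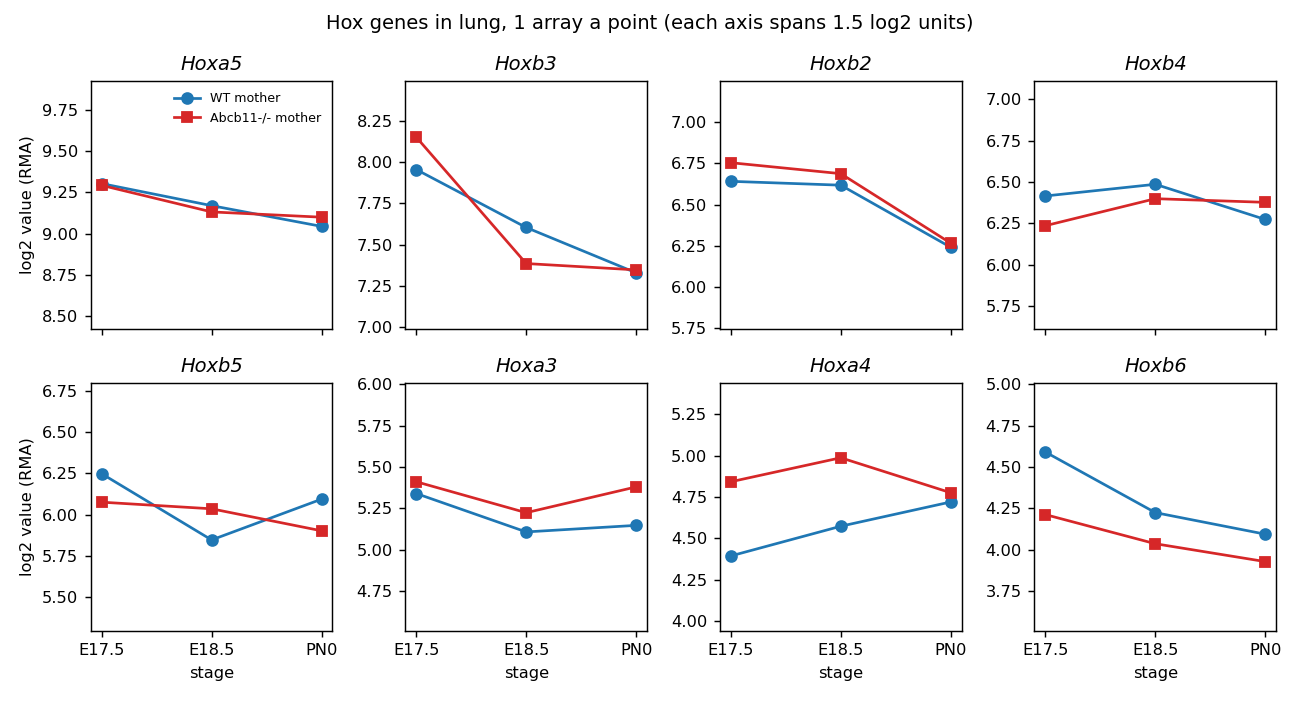
Log2 values of the 5 Hox genes above log2 6 and of Hoxa3, Hoxa4 and Hoxb6 at E17.5, E18.5 and PN0, for the WT mother (circles) and the Abcb11-/- mother (squares), 1 array a point. Hoxb3 is highest at E17.5 and Hoxb2 lowest at PN0 with each mother, and Hoxa5 stays between 9.04 and 9.30.

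The dim genes with an unadjusted p under 0.05 went both ways. Hoxb6 (-0.39, limma adjusted p = 0.152) and Hoxc4 (-0.43, adjusted p = 0.116) had lower values at PN0, and Hoxc5 (0.55, adjusted p = 0.146) and Hoxc9 (0.43, adjusted p = 0.132) had higher ones. None of the 4 reached log2 5 on any lung array.

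**Figure D3:**
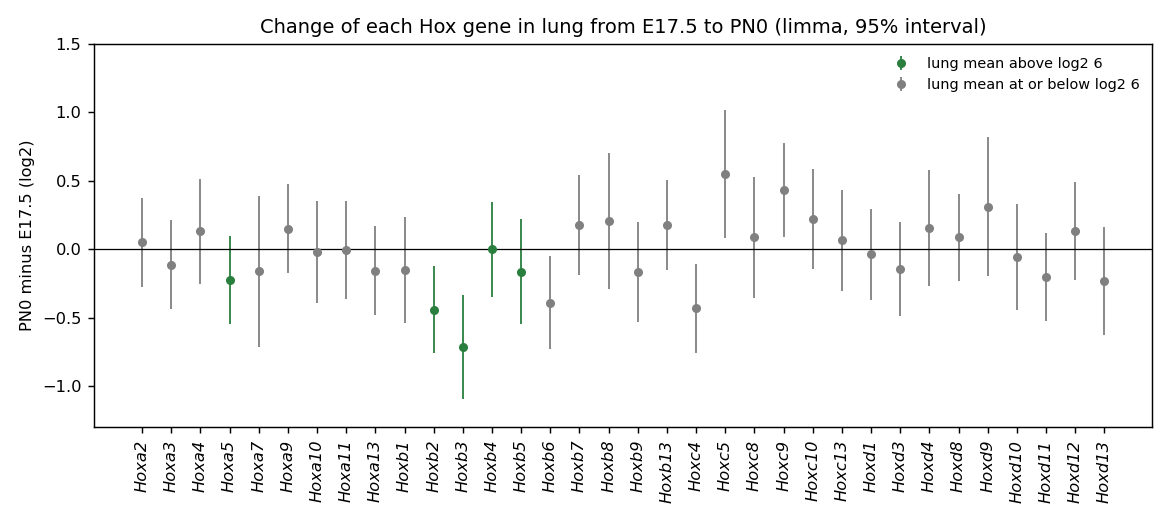
Log2 change from E17.5 to PN0 of each of the 34 Hox genes in the limma fit over 6 lung arrays, with bars for the 95% interval, and the 5 genes above log2 6 in green. Hoxb3 lies lowest at -0.71 and most intervals cross 0.

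The shorter steps gave no Hox call either. From E17.5 to E18.5, limma called 10 genes (0.0585% of all) and none of the 34, of which 3 had an unadjusted p under 0.05, a p that 12.8% of all genes had. The largest step of a Hox gene there was that of Hoxb3, at -0.56 (adjusted p = 0.243). From E18.5 to PN0 no gene was called (0%), while 2098 genes (12.3%), 3 Hox genes among them, had an unadjusted p under 0.05. Without the set-apart E17.5 array, none of the 34 was called in any of the 3 steps, where 7.51%, 1.8% and 0.205% of all genes were called from E17.5 to PN0, from E17.5 to E18.5 and from E18.5 to PN0, and the lowest adjusted p of a Hox gene was 0.113, for Hoxd9 from E17.5 to PN0.

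Markers of proliferation moved over the same stages. All 7 measured cell cycle genes were called lower from E17.5 to PN0, where 484 of 17097 genes were called lower. Their summed level went from 11.88 to 10.45 and 9.62 for the WT mother and from 11.34 to 10.61 and 10.005 for the Abcb11-/- mother. The calls of this list were not examined without the PN0 array of the WT mother. The summed level of the 11 lung fibroblast genes was 14.11 to 14.37. Of the 11, Fn1 and Mfap5 were called higher, neither of them without the set-apart E17.5 array. Lum and Dcn had changes of -1.22 and -1.06 (limma adjusted p = 0.278 and 0.139), with their low values on the PN0 array of the WT mother. The part of these shifts in the values of Hoxb3 and Hoxb2 was not tested.

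No difference of a Hox gene between the mothers passed the test. Over 3 stages limma called none of the 34 Hox genes and none of the 17097 genes (0%) for the mother. At an unadjusted p under 0.05 there were 867 genes (5.07%), 2 of them Hox genes, and the lowest adjusted p of a Hox gene was 0.926. Without the set-apart E17.5 array that lowest value was 0.766, and without the PN0 array of the WT mother it was 0.999, again with no gene called.

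For Hoxa5 the difference over the stages, Abcb11-/- minus WT mother, was 0.0023 with a 95% interval from -0.26 to 0.26. For Hoxb3 the interval was -0.31 to 0.31, for Hoxb2 -0.19 to 0.33, for Hoxb4 -0.34 to 0.23 and for Hoxb5 -0.37 to 0.26. A difference of 1.5-fold, 0.58 on the log2 scale, lies outside each of these intervals. These intervals were wider without the set-apart E17.5 array, from -0.34 to 0.36 for Hoxa5 and from -0.46 to 0.26 for Hoxb3.

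At single stages no Hox gene with an array of at least log2 6 was 1.5-fold apart between the mothers. The background for such a difference was 7.28% of genes at E17.5, 1.98% at E18.5 and 7.54% at PN0. The differences of the 5 bright Hox genes ran from -0.18 to 0.20 at E17.5, from -0.22 to 0.19 at E18.5 and from -0.19 to 0.10 at PN0. The median over the 34 genes was -0.04, -0.03 and -0.08 at the 3 stages, and over all genes -0.03, 0.01 and 0.01.

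Larger differences occurred among dim genes. Hoxa7, a gene of the thoracic segments, read 4.03, 3.65 and 3.52 for the WT mother and 3.34, 2.84 and 3.53 for the Abcb11-/- mother, so that it was 0.69 and 0.81 lower at E17.5 and E18.5 and level at PN0. Over the stages its difference was -0.50 with a limma adjusted p of 0.926. Hoxc5 was 0.60 lower for the Abcb11-/- mother at PN0, at 3.19 against 3.79. Hoxc4 was higher for the Abcb11-/- mother at each stage, by 0.43, 0.42 and 0.29, with the same adjusted p of 0.926 over the stages. Hoxa4 read higher with that mother as well, by 0.45 at E17.5, 0.41 at E18.5 and 0.06 at PN0.

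**Figure D4:**
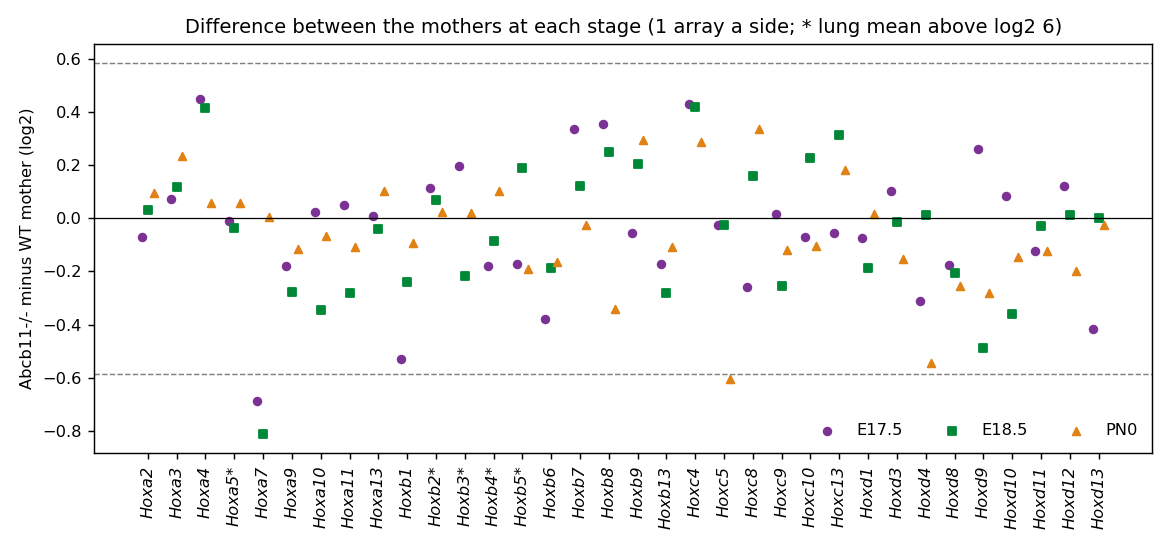
Log2 difference of each of the 34 Hox genes between the array of the Abcb11-/- mother and that of the WT mother at E17.5, E18.5 and PN0, with dashed lines at 1.5-fold. The 5 genes marked with an asterisk stay within 0.22 of 0, and the points beyond a line are Hoxa7 at E17.5 and E18.5 and Hoxc5 at PN0.

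None of the 34 Hox genes was above log2 6 in the liver, where 37.3% of all genes were. The highest single value was 4.10, of Hoxb3 on an Abcb11-/- liver. Lung and liver arrays were normalized apart, with medians of 3.63 to 3.68 and 3.15 to 3.18, so the values stand side by side without a test. Hoxa5 read 2.87 to 3.48 on the 6 liver arrays, Hoxb3 3.82 to 4.10, Hoxb2 3.62 to 3.95, Hoxb4 3.38 to 3.83 and Hoxb5 2.82 to 3.42. After a quantile normalization over all 12 arrays, with the probe set used in lung, 6 Hox genes had every lung array at least 2-fold above every liver array. They were the 5 genes above log2 6 and Hoxa3, that is 17.6% of the members, while 11.7% of all genes met this rule. The gap was 5.85 log2 units for Hoxa5 and 3.14 for Hoxb3, and 1.92 to 2.47 for the other 4.

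No Hox gene was called for genotype in the adult liver. Limma called 740 genes higher and 498 lower in Abcb11-/- livers (7.24%), none of them a Hox gene. No Hox gene had an unadjusted p under 0.05, a p that 21.6% of all genes had. The Hox genes were dim there, at 4.10 or lower on every liver array, which limits what these counts can show. The lowest adjusted p was 0.269, for Hoxb4, which read 3.66 ± 0.15 in WT and 3.44 ± 0.06 in Abcb11-/- livers (SD, n = 3 each).

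Hox proteins bind DNA together with cofactors of the TALE class, the Pbx, Meis and Pknox proteins. Of 9 such genes 8 were measured, and Pbx2, Pbx3, Meis1, Meis2, Pknox1 and Pknox2 had lung means above log2 6, from 6.19 to 7.96. None was called over the stages or for the mother, and the median change from E17.5 to PN0 was -0.24, or -0.19 without the set-apart E17.5 array.

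Polycomb proteins keep Hox genes silent by modifying histones, and 4 of the 24 measured Polycomb genes were called from E17.5 to PN0, beside 5.9% of all genes. Ezh2, the methyltransferase that writes the silencing methyl mark on histone H3, fell from 8.28 to 7.16 and 6.92 for the WT mother and from 7.98 to 7.27 and 7.04 for the Abcb11-/- mother (log2 change -1.15 ± 0.16 SE, adjusted p = 0.0243). Mtf2, a partner of Ezh2 (-1.11, adjusted p = 0.0305), and Cbx2, a reader of that mark (-0.87, adjusted p = 0.0335), fell too, whereas Pcgf5, a subunit of the other Polycomb complex, rose by 0.84 (adjusted p = 0.0396). These 4 limma calls were also made without the set-apart E17.5 array, but without any 1 of the other 5 arrays Ezh2, Cbx2 and Pcgf5 were not called, and Mtf2 was called again only without the PN0 array of the Abcb11-/- mother. The highest of these adjusted p-values were those without the PN0 array of the WT mother, 0.152 for Ezh2 and 0.236 for Pcgf5. The fall of the cell cycle genes ran alongside, and its part in the fall of Ezh2 was not tested.

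A further list held genes of the opposing Trithorax group, demethylases that remove that mark and some other chromatin genes. All 11 measured genes of this list had means above log2 6 and 1 was called, against 5.9% of all genes. It was Rbbp5, a subunit of the methyltransferases that mark active genes, which fell by 0.69 (limma adjusted p = 0.0464, and 0.071 without the set-apart E17.5 array). The median change of the 11 genes was -0.43, or -0.38 without that array.

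Retinoic acid is an inducer of the low-numbered Hox genes. Of 15 measured genes of its pathway, Dhrs3, which turns retinal back to retinol, was the 1 called from E17.5 to PN0, where 5.9% of all genes were, with a rise of 0.71 (limma adjusted p = 0.0418). It was not called without the set-apart E17.5 array (adjusted p = 0.0943), where Aldh1a1, which makes retinoic acid, was called instead (1.43, adjusted p = 0.0381). The median change of the 15 genes was 0.03, or -0.06 without that array. Aldh1a2, the main embryonic enzyme of retinoic acid synthesis, read 5.73, 5.81 and 4.63 for the WT mother and 6.18, 5.94 and 5.79 for the Abcb11-/- mother. Its change from E17.5 to PN0 was -0.74 (limma adjusted p = 0.146). The low value lay on the PN0 array of the WT mother, which was also low for Lum and Dcn, 2 of the 11 lung fibroblast markers. At PN0, 7.54% of genes with an array of at least log2 6 were 1.5-fold apart between the mothers.

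Among 16 measured neighbours of the clusters, 2 were called from E17.5 to PN0, against 5.9% of all genes. Lnpk, near cluster D, fell by 0.86 (limma adjusted p = 0.0295) and Cbx5, near cluster C, which encodes the heterochromatin protein HP1 alpha, fell by 0.85 (adjusted p = 0.0388). Without the set-apart E17.5 array Lnpk was called (adjusted p = 0.0387) and Cbx5 was not (0.0639). The 6 ParaHox genes, relatives of the Hox genes outside the clusters, had means of 2.94 to 3.12, and none was called.

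Of 20 transcription factors of the lung mesenchyme, 11 had means above log2 6, and 2 rose from E17.5 to PN0, against 5.9% of all genes called. Foxf1, a target of hedgehog signalling that the pulmonary vessels require, rose by 0.81 (limma adjusted p = 0.032), and Tbx3, a T-box factor of the lung bud mesenchyme, rose by 0.71 (adjusted p = 0.0389). Neither was called without the set-apart E17.5 array (adjusted p = 0.071 and 0.0775), where Gli1, a readout of hedgehog signalling, was called with a fall of 1.00. Tcf21, which marks the fibroblast lineage, had a mean of 11.74 and a change of -0.29. No gene of these lists was called for the mother. Of the 6 calls outside the Polycomb list, all were lost when any 1 array was left out, apart from Lnpk without the set-apart E17.5 array, and the highest limma adjusted p among them was 0.267, for Rbbp5 without the PN0 array of the WT mother.

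**Figure D5:**
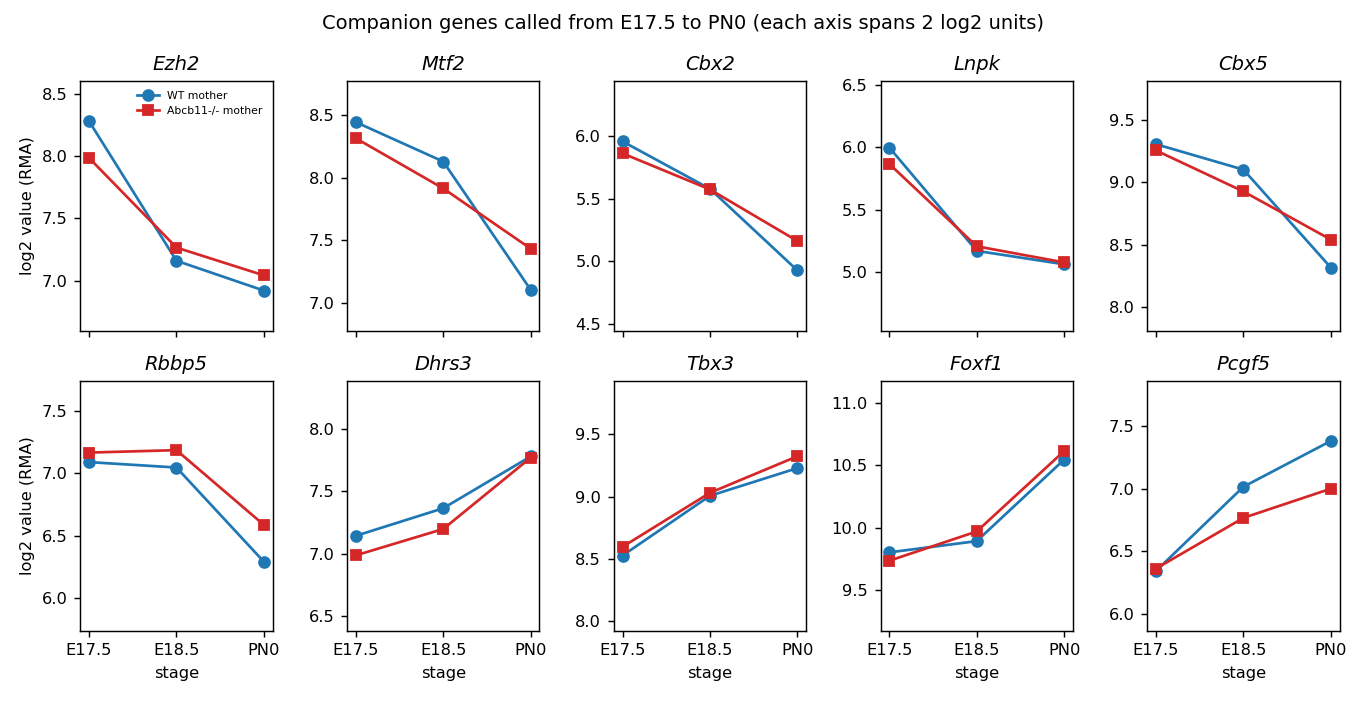
Log2 values at E17.5, E18.5 and PN0 of the 10 genes of the Polycomb, Trithorax, retinoic acid, neighbour and mesenchyme lists that limma called from E17.5 to PN0, for the WT mother (circles) and the Abcb11-/- mother (squares), 1 array a point. Ezh2, Mtf2, Cbx2, Lnpk, Cbx5 and Rbbp5 fall and Dhrs3, Tbx3, Foxf1 and Pcgf5 rise with each mother.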

How the data were processed

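Total RNA (100 ng) of lung and liver was labelled and hybridised to Affymetrix mouse PM plate arrays, 12 in all. The deposited values are log2 values, which the authors obtained with RMA (robust multiarray averaging). The processing notes of the submitters also name Partek 6.5. No detection p-value comes with them, and their precision is limited by the number of arrays. Of 45037 probe sets, 28898 named a single gene, 551 several and 15588 none in the annotation table used, which can be old, and 28689 were matched to RefSeq (GRCm38.p6) by gene number.

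Each of the 17097 genes was read from its brightest probe set in the tissue. Models were fitted in limma 3.58.1 with R 4.3.3 (lmFit, eBayes), with stage and mother in lung (2 residual degrees of freedom) and genotype in liver (4), and p-values were adjusted by Benjamini-Hochberg over all genes. The lung fit takes the arrays of all stages to vary alike and the mother to act alike at each stage. Whether arrays stand for separate animals is not given in the sources used here for the lung, so the p-values measure only the spread between these samples. Differences at a single stage have 1 array a side and no test. They are given as log2 differences, counted at 1.5-fold with the brighter array at log2 6 or more.

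Named genes are those above log2 6, those called in any fit, those 1.5-fold apart between mothers, the 3 just below log2 6 and up to 6 called members of each companion list. Dim genes with an unadjusted p under 0.05, Hoxa2, the dim genes apart between the mothers, Aldh1a2, Tcf21, Hoxd9, Lum, Dcn, Fn1, Mfap5, the promoters of Hoxa13, Hoxd13 and Hoxd1, and the genes called only without 1 array were named after their values were seen. The members and lists were chosen with earlier results of these data known. Summed levels are the log2 of summed linear values. Scripts were tested on simulated data. The alternatives tried were averaged probe sets, the probe set brightest over 12 arrays, quantile normalization, median centring, a minimum mean of log2 6, a trended and robust prior, other thresholds, a replicate block in liver and leaving out each array. The quantile normalization over 12 arrays used to set every lung array against every liver array was added after seeing the data.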

Additional observations from a re-analysis of the deposited data

How the results depend on the processing

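Of 126 alternatives over 15 results, 8 could not have differed, because they tested no Hox gene or set a stricter threshold after a count of 0. That number is a lower bound. No Hox value in liver was above 4.10, so other alternatives for the number above log2 6 in liver were fixed as well. These were averaged probe sets, another choice of probe set, a threshold of log2 5 and leaving out an array. Of the other 118, which include these fixed liver alternatives, 115 left the result on the same side or within the margin. The exceptions were the number of Hox genes called from E17.5 to PN0 and the number above log2 6 in lung. The first, 0 in the fit over all genes, was 2 with a minimum mean of log2 6 and 1 with a trended and robust prior. With that minimum, 1446 of 7222 genes were called. It left fewer genes and also changed the standard errors, for Hoxb3 from 0.154 to 0.142. The causes of both moves were not tested. The second number was 2 with log2 7 as the threshold. With log2 5 as the threshold it was 6. Leaving out single arrays gave 4 to 5 genes above log2 6 in lung, 0 in liver and 0 Hox genes called in every fit. For Hoxb3 from E17.5 to PN0, the change ran from -0.86 to -0.57 over 12 alternatives and the adjusted p from 0.0218 to 0.264. Leaving out the PN0 array of the WT mother gave the highest of these p-values. Over all genes, the E17.5 to PN0 calls numbered 1008, 1783 with the trended and robust prior, and 26 to 1284 with 1 array left out, 26 without the PN0 array of the WT mother. From E17.5 to E18.5 they were 10, with 197 under that prior, 45 with the minimum mean, 0 after quantile normalization and 0 to 307 with 1 array left out. From E18.5 to PN0 they were 0, with 87, 18, 14 with averaged probe sets and 0 to 35. For the mother they were 0, with 1 under that prior and 1 with the minimum mean. The 1238 liver calls were 492 to 1509 with 1 array left out. Fits with an array left out have fewer degrees of freedom, and a lone array is assumed to vary like the others.

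Replicate numbers in the liver do not pair the samples (correlations of deviations -0.04, -0.04 and -0.14). With the replicate block, 429 genes were called higher and 242 lower, against 740 and 498 without it, and 0 Hox genes. In the lung, the stage term of the model already sets the mothers against each other within a stage. Brightness limits most members, since 29 of 34 were at or below log2 6.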

Other observations

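Non-coding transcripts of the Hox clusters were also on the array. Those given here were chosen after their values were seen. Hoxb5os, transcribed next to Hoxb5 and Hoxb6, read 7.88, 7.93 and 6.86 at E17.5, E18.5 and PN0 for the WT mother and 7.98, 7.97 and 8.11 for the Abcb11-/- mother. The PN0 array of the WT mother was 1.24 below that of the Abcb11-/- mother and below the other 4, which lay at 7.88 to 7.98, while Hoxb5 itself differed by -0.19 between the mothers at that stage. There is 1 array a side and no test. In the same pair Lum and Dcn, 2 of the 11 lung fibroblast markers, were 2.35 and 1.37 lower on the array of the WT mother. On that array 5 of 9 heart muscle markers were at least 1.5-fold lower too. The part of these genes in the difference of Hoxb5os was not tested. At PN0, 7.54% of genes with an array of at least log2 6 were at least 1.5-fold apart. Its 6 liver values were 3.00 to 3.55. Hoxaas2 in cluster A was dim, at 3.22 to 3.95, and lower for the WT mother at E17.5 and PN0. Hoxd3os1 stayed between 2.85 and 3.24.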
